A study of Mus musculus with 2 samples.

Results

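The genes described here are 9 markers by which resident alveolar macrophages are recognised: Siglecf, Marco, Pparg, Chil3, Fabp4, Mrc1, Abcg1, Cd36 and Car4. They were taken by gene symbol from the 13840 genes that the array's annotation names, with older names such as Chi3l3 brought up to date through the gene ID, and all 9 were represented. They were chosen by what the cells are known to express, with the differences between the same 2 arrays already in view, so every value below is a description. One array held lung RNA from Rosa26-Foxm1 mice and the other lung RNA from wild-type mice. Rosa26-Foxm1 mice carry a transgene for Foxm1, a forkhead transcription factor of dividing cells, and are named after the Rosa26 locus, whose promoter is active in many tissues. Their labels give no sex or strain, whereas wild-type animals are labelled as male and FVB/N. Both groups had received 15 µg/g of the carcinogen 3-methylcholanthrene once and 6 weekly injections of butylated hydroxytoluene, at 150 µg/g for the first and 200 µg/g for the rest, and their lungs were taken 12 weeks after the carcinogen. Each array was hybridised with left lung lobes pooled from 3 mice, so there is no replicate within a genotype, no test between genotypes is possible, and precision is limited by how few arrays there are. No array of lung without the carcinogen was used here.

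Alveolar macrophages live in the air spaces, where they take up inhaled particles and break down spent surfactant lipid. Granulocyte-macrophage colony-stimulating factor (GM-CSF), made largely by alveolar type II cells, induces the nuclear receptor PPAR gamma in fetal monocytes and thereby sets up the resident programme, and TGF-beta signalling is needed to keep it. Siglec-F, a sialic acid binding lectin, separates these cells from interstitial macrophages in flow cytometry. PPAR gamma and the oxysterol receptor LXR switch on genes for lipid uptake, binding and export, among them Cd36, Fabp4 and Abcg1.

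The resident identity genes did not differ as a block between Rosa26-Foxm1 and wild-type lung. Siglecf was 2.39-fold lower and Marco at least 1.68-fold lower in Rosa26-Foxm1 lung, whereas Pparg and the secreted protein gene Chil3 were 1.36-fold and 1.35-fold higher. The other 5 lay between, from -0.41 for Cd36 to 0.28 for Fabp4 on the log2 scale. At the 1.5-fold size used throughout, 0 of the 9 were higher, 2 were lower and 7 were between, beside 7.08% of all 9518 measured genes higher and 8.45% lower. At the 2-fold size 0 members were higher and 1 (Siglecf) was lower, beside 1.98% of all measured genes higher and 1.51% lower. These are the differences the members were chosen with in view, and nothing is read from the counts. Differences are log2 Rosa26-Foxm1 minus log2 wild type, a gene counts as measured if it was above the floor (the median intensity of an array) on at least 1 array, and a fold against an array below the floor is written as at least that fold. All 9 members were measured, 8 of them above the floor on both arrays and Marco above it in wild-type lung alone. Whole lung also holds other cells that express several of these genes. The median over the 9 was -0.11, beside -0.06 over all measured genes, and it was 0.03 with median scaling of the arrays.

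**Figure D1:**
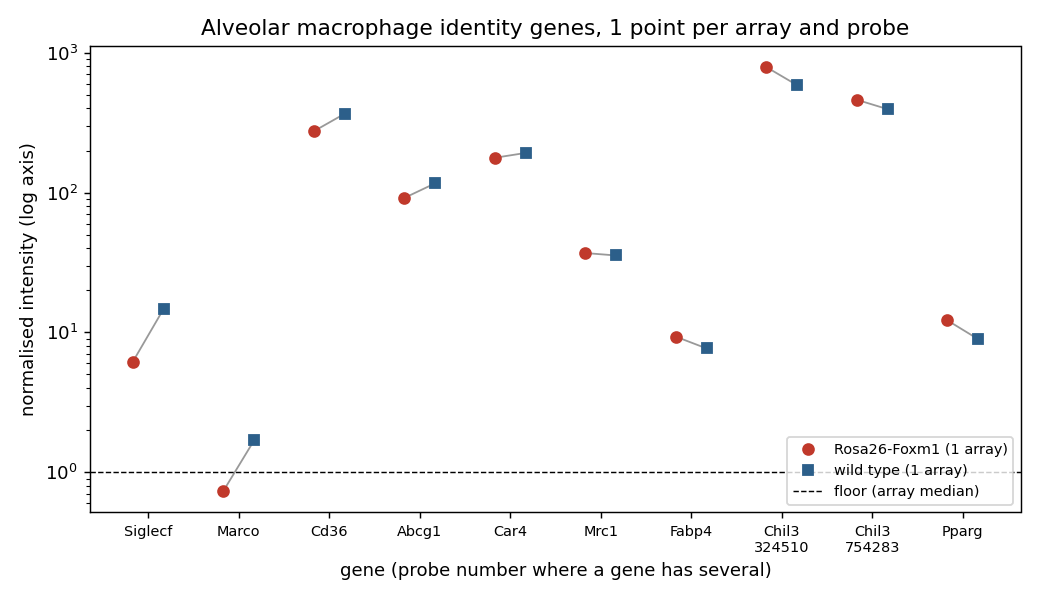
Normalised intensity (log axis) of every probe of the 9 identity genes, with the Rosa26-Foxm1 array (red circles) left of the wild-type array (blue squares) and genes ordered by their difference. Each point is 1 array and carries no error bar, and the dashed line is the floor; Siglecf and Marco have the steepest lines, and Marco crosses the floor.

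The error that the arrays allow is the probe SD. It is the root mean square gap between the log2 differences of the 2 brightest measured probes of a gene, divided by the square root of 2. It was 0.31 on the log2 scale over 317 genes with at least 2 measured probes, and 0.37 for the dimmer and 0.23 for the brighter of them. It covers neither differences between mice nor errors that a whole array shares. Deposited intensities had medians of 1.00 on both arrays. The Foxm1 probe itself was near the floor on both, at 1.23 in Rosa26-Foxm1 and 1.13 in wild-type lung (log2 difference 0.11, smaller than the probe SD), and no source used here says whether it matches the transgene. RNA of whole lobes was measured, so fewer cells of a type and less RNA per cell cannot be told apart.

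The promoters of Siglecf and Marco, the genes past 1.5-fold, are shown beside those of Pparg and Chil3, the members with the highest differences, so that both ends of the range can be read together. Pparg has 3 annotated starts, and the window shown is the second, picked because it holds the letters searched for. Each is the stretch of 250 bases before the annotated start, 5′ to 3′ on the strand of the gene, from RefSeq on mouse build GRCm38.p6. Capitals mark GAGGAA or its reverse complement TTCCTC, the core of the site of PU.1, a lineage factor of macrophages, and in Pparg also AGGTCA, a half-site of nuclear receptors.
Siglecf chr7:43351091-43351340 (+): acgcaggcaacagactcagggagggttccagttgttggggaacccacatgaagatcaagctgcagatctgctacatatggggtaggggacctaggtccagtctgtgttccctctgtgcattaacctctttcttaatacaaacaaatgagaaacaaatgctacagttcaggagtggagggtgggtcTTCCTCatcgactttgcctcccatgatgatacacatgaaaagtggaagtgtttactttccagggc
Marco chr1:120505025-120505274 (-): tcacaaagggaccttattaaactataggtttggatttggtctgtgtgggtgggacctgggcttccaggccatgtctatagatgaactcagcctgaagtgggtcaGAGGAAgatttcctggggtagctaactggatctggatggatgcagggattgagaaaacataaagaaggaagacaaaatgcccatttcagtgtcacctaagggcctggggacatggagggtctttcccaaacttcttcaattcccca
Pparg chr6:115362099-115362348 (+): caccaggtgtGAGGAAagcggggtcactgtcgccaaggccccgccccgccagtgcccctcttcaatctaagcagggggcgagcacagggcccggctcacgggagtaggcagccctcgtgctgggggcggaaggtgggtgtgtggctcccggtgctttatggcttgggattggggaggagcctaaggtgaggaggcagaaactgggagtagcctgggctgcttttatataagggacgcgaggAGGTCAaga
Chil3 chr3:106167565-106167814 (-): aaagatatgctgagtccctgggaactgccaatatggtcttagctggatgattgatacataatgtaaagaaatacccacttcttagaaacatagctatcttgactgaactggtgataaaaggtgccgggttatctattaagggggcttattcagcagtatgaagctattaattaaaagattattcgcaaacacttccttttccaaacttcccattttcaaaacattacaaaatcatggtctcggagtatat
The PU.1 letters stand 65 bases before the start of Siglecf on the reverse strand and 146 bases before that of Marco on the forward strand. In the Pparg window shown they stand 240 bases before the start on the forward strand. That window was picked because it holds the letters searched for, so its match is not evidence about the higher end of the range. The PU.1 letters are not in the other Pparg windows, nor in the Chil3 window. They are common, being found on either strand in 23.3% of 32851 promoter stretches of this length. Mrc1, which differed by 0.06, holds them 3 times. The half-site, AGGTCA or TGACCT, was in the window of Cd36 and in 2 of the 3 Pparg windows, and in 14.0% of all. The E-box CACGTG, bound by the alveolar macrophage factors Bhlhe40 and Bhlhe41, was in none of the 9 windows of the 7 genes in the promoter table, and in 6.02% of all. No matches overlapped each other. Fabp4 and Abcg1 are not in that table. A match is a run of letters and not a measured binding site.

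Among the surface receptors, Siglecf (probe 356847) had a normalised intensity of 6.15 in Rosa26-Foxm1 lung, against 14.7 in wild-type lung. Both values were well clear of the floor of 1.00, and the log2 difference of -1.26 was 4.07 times the probe SD. Of all measured genes 56 had a lower difference, which places Siglecf at percentile 0.588. With measured genes split into 4 equal classes by brightness, Siglecf was in the third. Among the 2379 genes there the 5th and 95th percentiles of the difference were -0.61 and 0.59, and Siglecf was the 1 member outside that range for its own class. It was at -0.98 with a floor at the 75th percentile and between -1.28 and -1.13 under every other setting tried, so that it was past 1.5-fold lower in all 9 settings, the reported one included.

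Eosinophils also carry Siglec-F. Their granule genes Prg2, Prg3 and Epx and their receptors Ccr3 and Il5ra were below the floor on both arrays, so 5 of the 7 eosinophil markers with a probe were not measured. Of the others, the eosinophil-associated ribonuclease gene Rnase2a was 11.6 in Rosa26-Foxm1 and 7.74 in wild-type lung (log2 difference 0.59). Gata1, a factor of erythroid cells, megakaryocytes and eosinophils, was below the floor in Rosa26-Foxm1 lung and 3.19 in wild-type lung, at least 3.18-fold lower. The summed intensity of these 2 measured genes was 11.9 in Rosa26-Foxm1 and 10.9 in wild-type lung. That sum is mostly Rnase2a and joins 2 genes of opposite sign, so it gives no measure of eosinophil content. The part of eosinophils in the Siglecf value was not tested.

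Within the Siglec family, Cd33, another sialic acid receptor of myeloid cells, had the opposite difference to Siglecf: 6.51 in Rosa26-Foxm1 against 2.72 in wild-type lung, 2.39-fold higher. Siglecg, an inhibitory receptor of B cells and the next gene after Siglecf on its chromosome, was 1.17 against 2.16 (1.85-fold lower) and near the floor. Siglech, a marker of plasmacytoid dendritic cells, was 2.59 against 3.55 (log2 difference -0.45). Cd22, Mag and Siglece were below the floor on both arrays, and the annotation held no probe for Siglec1 or Siglec15 alone. In all, 1 of 4 measured Siglec genes was at least 1.5-fold higher and 2 were lower. The gene before Siglecf, Zfp715, was below the floor in Rosa26-Foxm1 lung and 1.37 in wild-type lung, a log2 difference of -0.45 as a bound.

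Marco (probe 308635), a collagenous scavenger receptor that binds bacteria and unopsonised particles, was below the floor in Rosa26-Foxm1 lung at 0.732, against 1.69 in wild-type lung. Its wild-type signal was itself dim, brighter than 57.2% of the probes on that array, and the Rosa26-Foxm1 signal was brighter than 44.5% of its probes. With the floor applied the log2 difference was -0.75, and with a floor at the 25th percentile or none it was -1.20, and it was -0.63 when 1 was added to each value before the log. In the dimmest of the 4 classes the 5th percentile was -0.91, so the floored value lay inside the range of that class. With the floor at the 75th percentile Marco was not measured.

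Other scavenger receptor genes lay on both sides of 0. Msr1, which takes up modified lipoproteins, was 10.1 in Rosa26-Foxm1 and 3.11 in wild-type lung (3.24-fold higher). Scara5, a ferritin receptor, was 4.01 in Rosa26-Foxm1 lung and below the floor in wild-type lung, at least 3.99-fold higher. Olr1, a lectin-like receptor for oxidised lipoprotein, was 12.9 against 7.30 (1.77-fold higher). Scarb1, the receptor for high-density lipoprotein, was 27.0 against 44.9 and so 1.66-fold lower. Of 15 measured scavenger and pattern receptors, Marco, Cd36 and Mrc1 included, 3 were at least 1.5-fold higher and 2 lower, and the median was -0.01, or 0.11 with median scaling.

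Mrc1 (probe 331550), the mannose receptor that clears glycoproteins, had 37.0 in Rosa26-Foxm1 and 35.5 in wild-type lung. The log2 difference of 0.06 was smaller than the probe SD and ran from 0.06 to 0.11 over the settings. Lymphatic endothelium carries Mrc1 too. Of its markers Lyve1 was 90.4 against 116 (log2 difference -0.36), Ccl21a 205 against 162 (0.33), and Prox1 and Reln were below the floor. Pdpn was 96.3 against 81.7 (0.24), and Flt4, near the floor, was at -0.38. The summed intensity of these 4 measured markers was 393 in Rosa26-Foxm1 and 362 in wild-type lung. Since 2 of them were above 0 and 2 below, the higher sum rests on Ccl21a and Pdpn. The part of lymphatic endothelium in the Mrc1 value was not tested.

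**Figure D2:**
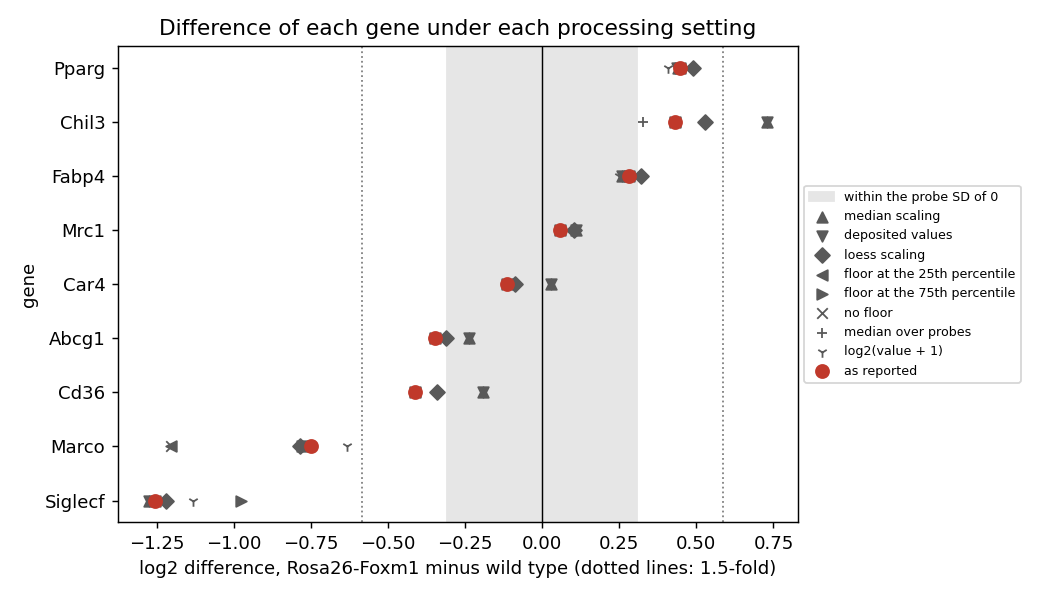
Log2 difference (Rosa26-Foxm1 minus wild type) of each identity gene as reported (red) and under the 8 other settings (grey symbols), with the band within 1 probe SD of 0 in grey and 1.5-fold as dotted lines. Siglecf and Marco stay left of the lower dotted line wherever they were measured, Chil3 passes the upper one with median scaling and the deposited values, and Car4 changes sign.

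Pparg (probe 551619), the nuclear receptor at the head of the resident programme, had 12.2 in Rosa26-Foxm1 and 8.94 in wild-type lung. Its log2 difference of 0.45 was 1.45 times the probe SD, at percentile 88.2 of all measured genes, and it ran from 0.41 to 0.49 over the settings. Type II cells and adipocytes express Pparg as well. Of 8 measured type II cell markers, 1 was higher past 1.5-fold (Sftpd, surfactant protein D, 413 against 216) and 1 lower (the transcription factor gene Etv5, 9.94 against 16.3). Their median was -0.31, with 2 above 0 and 6 below. Their summed intensity was 5148 in Rosa26-Foxm1 and 5342 in wild-type lung, with Sftpc, surfactant protein C, at 859 against 1228. That sum joins genes of opposite sign, among them the bright Sftpa1 at 1757 against 1236, so it gives no measure of type II cell content. Of 6 adipocyte markers with a probe, Lep, Retn and Cidea were below the floor on both arrays. Plin1, which coats the fat droplet of adipocytes, was at least 2.21-fold higher, at 2.21 in Rosa26-Foxm1 lung and below the floor in wild-type lung. Cidec differed by -0.16, Plin4 was below the floor in Rosa26-Foxm1 lung and 1.31 in wild-type lung, and the summed intensity of the 3 measured adipocyte markers was 4.35 against 4.02. The part of either cell type in the Pparg value was not tested.

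Other nuclear receptors and coregulators listed beside Pparg lay on both sides of 0. Nr1h3, which encodes LXR alpha, was 56.5 in Rosa26-Foxm1 and 71.7 in wild-type lung (log2 difference -0.34). Of 7 measured nuclear receptors and coregulators, 0 were past 1.5-fold in either direction, 2 were above 0 and 5 below, with a median of -0.17. Ppara, the receptor of fatty acid oxidation, was at -0.42 and Rxrb, a dimer partner, at -0.17. The coactivator genes Ppargc1a and Ppargc1b were at 0.55 and 0.52.

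The lipid genes downstream of PPAR gamma and LXR that are members lay on both sides of 0. Fabp4 (probe 911378), a cytosolic fatty acid carrier, had 9.32 in Rosa26-Foxm1 and 7.68 in wild-type lung, a log2 difference of 0.28 that was smaller than the probe SD. Cd36 (probe 924625), which imports long-chain fatty acids and oxidised lipoprotein, had 275 against 366 (-0.41), which was 1.34 times the probe SD. Abcg1 (probe 532780), which exports cholesterol to lipoprotein and whose loss fills alveolar macrophages with lipid, had 91.6 against 116 (-0.35), 1.12 times the probe SD. With median scaling Cd36 was at -0.19 and Abcg1 at -0.24, both then smaller than the probe SD of 0.31. Against the 0.23 of the brighter genes Cd36 was smaller and Abcg1 slightly larger. Both SDs were taken from the quantile normalised values.

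Of 18 other measured target genes of lipid handling, 2 were at least 1.5-fold higher, 2 were lower and 14 were between, with a median of -0.19. Plin2, which coats lipid droplets, was 105 in Rosa26-Foxm1 and 69.1 in wild-type lung (1.52-fold higher). Abca1, the other main cholesterol exporter of macrophages, was 4.97 against 7.72 (1.55-fold lower). Pltp, a phospholipid transfer protein, was 127 against 192 (1.51-fold lower). Abcg1 was lower beside Abca1, whereas Abcg2, another ABCG transporter, was at 0.07. Abcg3 and Abcg5 did not reach the floor on either array. Abcg4 was 0.418 in Rosa26-Foxm1 lung, below the floor, and 1.01 in wild-type lung, and Abcg8 was 1.14 in Rosa26-Foxm1 lung and 0.665 in wild-type lung, below the floor. Their differences of -0.010 and 0.18 are bounds set by the floor, and with no floor or one at the 25th percentile they were -1.27 and 0.77, past 1.5-fold. Abcg1 and Abcg2, above the floor on both arrays, were within 1.5-fold of equality.

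The genes of the fatty acid binding family did not differ alike. Fabp5, the carrier that macrophages and type II cells share, was 45.2 in Rosa26-Foxm1 and 13.6 in wild-type lung, 3.32-fold higher. Fabp12, the gene next to Fabp4 on its chromosome, was 13.4 against 7.53 (1.78-fold higher), and Fabp2, known from intestine, was 2.85 against 1.43 (log2 difference 1.00). Fabp7 was at least 1.59-fold higher, its wild-type value lying under the floor. Fabp1, which alveolar macrophages also express, was 13.5 against 18.3 (-0.43), and Fabp3 differed by 0.01. Of 7 measured members of the family 4 were at least 1.5-fold higher and 0 lower, beside 7.08% of all measured genes higher and 8.45% lower. Fabp2 and Fabp7 were in the dimmest brightness class, where 26.7% of genes were at least 1.5-fold apart. Fabp5 and Fabp12 were in the third class, where 10.9% were. Fabp6 and Fabp9 were below the floor on both arrays.

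Chil3 encodes Ym1, a chitinase-like protein that alveolar macrophages secrete in quantity and that forms crystals in inflamed lung. Its brighter probe (324510) had 790.2 in Rosa26-Foxm1 and 587 in wild-type lung, and its other probe (754283) had 461 against 395. The log2 differences were 0.43 and 0.22, and the 0.21 between the probes was smaller than the probe SD. Chil3 was the member whose size depended most on the scaling, at 0.53 with loess and 0.73 with median scaling or the deposited values, and 0.73 is past 1.5-fold. The deposited intensities of the brighter probe were 865 in Rosa26-Foxm1 and 522 in wild-type lung, each above 99.6% of the probes of its array, where quantile normalisation ties the 2 arrays to a common set of values.

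Chil3 lies between Chia1 and Chil4. Chil1, which is made by macrophages and epithelium, was 410 in Rosa26-Foxm1 and 82.9 in wild-type lung (4.95-fold higher), and Chia1, the acidic chitinase of the airway, was 187 against 232 (log2 difference -0.31). Chil6 and Chit1 were below the floor on both arrays. Chil4 and Chil5 have no probe of their own in the annotation, and Chil3 is similar enough to Chil4 that a probe can read both, so the Chil3 values are uncertain to that extent. Type 2 cytokines raise Chil3 and Mrc1 in macrophages. Of 12 measured genes of that programme, 4 were at least 1.5-fold higher, 2 were lower and the median was 0.21. Retnla, another secreted product of it, was 109 in Rosa26-Foxm1 and 52.8 in wild-type lung (2.07-fold higher), Ccl22 was 4.07 against 1.65 (2.47-fold) and Ccl17 was 6.68 against 3.04 (2.20-fold). The signalling inhibitor gene Socs1 was 10.8 against 7.05 (1.53-fold higher), and the lectin gene Cd209a was 10.5 against 16.4 (1.56-fold lower). Arg1 was near the floor and differed by 0.10. Stat6, which transmits the signal, was 11.9 against 19.5 (1.64-fold lower), and Il4, Il13 and Il13ra2 were below the floor on both arrays.

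Car4 (probe 349705), a membrane-bound carbonic anhydrase, had 178 in Rosa26-Foxm1 and 192 in wild-type lung. The log2 difference of -0.11 was smaller than the probe SD and was 0.03 with median scaling, so its sign is not settled. Of 12 measured carbonic anhydrase genes 3 were at least 1.5-fold higher and 0 lower, beside 7.08% of all measured genes higher and 8.45% lower. These 3 were in the dimmest brightness class, where 26.7% of genes were at least 1.5-fold apart, and nothing is read from the count. Car13, a cytosolic form, was 3.98 against 1.69 (2.36-fold), Car6, a secreted form, was at least 3.31-fold higher over a wild-type value under the floor, and Car11 was 1.93 against 1.25 (1.55-fold). The other measured genes of the family lay between -0.40 for Car7 and 0.30 for Car9, with Car15 at -0.38, Car14 at -0.29, Car3 at -0.12 and Car2 at -0.003. The values of Car5b and Car12, 0.04 and 0.11, are bounds, since neither gene reached the floor in wild-type lung. Car1, Car5a and Car10 were below the floor on both arrays, and Car8 had no probe of its own.

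Capillary endothelium expresses Car4 and Cd36. All 16 of its measured markers were below 0, and 10 were at least 1.5-fold lower, with a median of -0.73 and a summed intensity of 1919 in Rosa26-Foxm1 and 3085 in wild-type lung. Calcrl, a receptor for adrenomedullin, was 3.24 in Rosa26-Foxm1 and 7.18 in wild-type lung (2.22-fold lower), and Epas1, a hypoxia-inducible factor, was 33.7 against 72.2 (2.14-fold lower). Pecam1, an endothelial junction protein, was 156 against 329 (2.11-fold lower), Cdh5, the endothelial cadherin, was 6.30 against 12.1 (1.91-fold lower), and Ednrb, which with Car4 marks aerocytes, was 10.7 against 15.2 (-0.51). Egfl7 and Ramp2, at -0.06 and -0.08, were at 0.04 and 0.03 with median scaling. Cd36 and Car4 were less far below 0 than the median of these markers. The part of endothelium in both values was not tested.

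**Figure D3:**
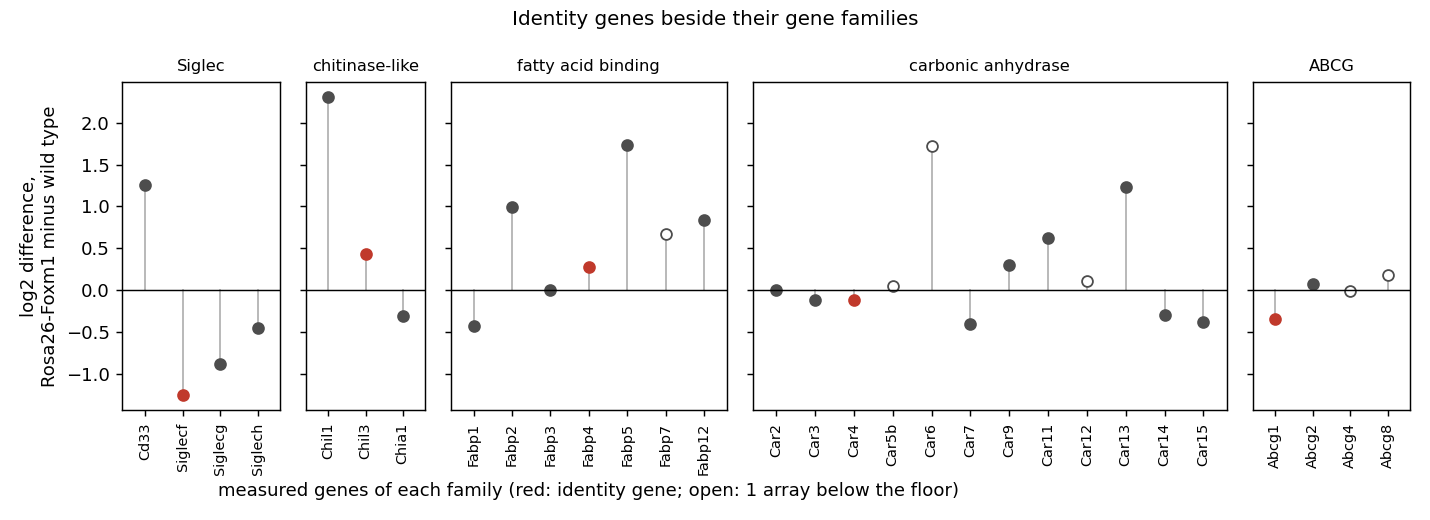
Log2 difference (Rosa26-Foxm1 minus wild type) of the measured genes of the Siglec, chitinase-like, fatty acid binding, carbonic anhydrase and ABCG families, with identity genes in red and genes below the floor on 1 array as open circles. Siglecf at -1.26 and Cd33 at 1.26 are the ends of the Siglec family. Fabp4 lies above Fabp1 and Fabp3 and below the other measured genes of its family, and Chil3 lies above Chia1 and below Chil1.

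The upstream signals of the resident programme were read from a list of GM-CSF and TGF-beta genes. Csf2, which encodes GM-CSF itself, was 4.99 in Rosa26-Foxm1 and 1.89 in wild-type lung (2.64-fold higher). Its receptor chains Csf2ra, at 130 against 133, and Csf2rb, at 1.70 against 1.52, differed by less than the probe SD. Tgfbr2, the ligand-binding TGF-beta receptor, was 23.7 against 43.3 (1.82-fold lower), whereas Tgfb1 differed by -0.07. Endothelial and stromal cells express Tgfbr2 as well. Spi1, which encodes PU.1, was 15.7 against 13.1 (0.27), and Bhlhe41 was at the floor. Of 16 measured genes on the list Csf2 and Tgfbr2 were the ones past 1.5-fold, and the median was -0.07.

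Among 20 other measured genes known from alveolar macrophages, 7 were at least 1.5-fold higher, 1 was lower and 12 were between, with a median of 0.29. The 4 highest were the cysteine protease gene Ctsk (75.4 in Rosa26-Foxm1 against 15.5 in wild-type lung, 4.86-fold), Fabp5, the galectin gene Lgals3 (at least 2.90-fold, wild type below the floor) and the proton pump subunit gene Atp6v0d2 (39.0 against 14.2, 2.74-fold). The lowest was Krt79, a keratin found in alveolar macrophages, at 14.8 against 29.2 (1.97-fold lower). Ctsk, Fabp5, Lgals3 and Cd9 are also on the list of lipid-laden macrophage genes. Without these 4, a choice made after their values were seen, the median over the remaining 16 genes was -0.021, with 4 at least 1.5-fold higher and 1 lower. No probe carried Itgax, Ear1 or Ear2 alone.

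Genes shared by macrophages had a median of 0.31 over 10 measured genes, with 4 at least 1.5-fold higher and 0 lower. The lysosomal protease gene Ctsd was 598 in Rosa26-Foxm1 and 273 in wild-type lung (2.19-fold higher) and the endotoxin co-receptor gene Cd14 was 27.1 against 15.3 (1.77-fold). Aif1, an actin-binding protein of macrophages, was 6.13 against 3.41 (1.80-fold), and Fcgr1, a receptor for immunoglobulin G, was 7.32 against 4.48 (1.64-fold). Adgre1, a surface antigen used to identify mouse macrophages, had a log2 difference of -0.56. The efferocytosis receptor gene Mertk was 19.2 in Rosa26-Foxm1 against 24.7 in wild-type lung (-0.36). Lyz2, among the brightest genes of the list, was 740 against 1050 (-0.50). These 3 genes were below 0 and the other 7 above. Set against the median of 0.31, 7 of the 9 identity genes lay below it. Most measured genes lay below it too. Among all of them Apoe, at 0.30, stood at percentile 80.6 and Plac8, at 0.32, at percentile 81.4. Nothing is read from this count. On the log2 scale relative to the macrophage median, Siglecf was at -1.57 and Marco, as a bound, at -1.06. Cd36 was at -0.73, Abcg1 at -0.66, Car4 at -0.43, Mrc1 at -0.26 and Fabp4 at -0.03. Chil3 at 0.11 and Pparg at 0.13 were the members above it. These positions near the median depend on the setting. With median scaling or the deposited values the macrophage median was 0.48 and Pparg, at 0.44, was below it, so that 8 of 9 members were. When the floor was raised to the 75th percentile, the macrophage median was 0.16 and Fabp4, at 0.28, was above it. Of the 8 measured members 5 were then below. The share of all genes below these other medians was not counted.

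The list of lipid-laden macrophage genes held larger differences than the identity genes, whereas the interstitial macrophage and monocyte list was mixed. All 9 measured lipid-laden genes were above 0 and 7 were at least 1.5-fold higher, with a median of 1.73 and a summed intensity of 1268 in Rosa26-Foxm1 and 765 in wild-type lung. Mmp12, the macrophage elastase, was 95.8 in Rosa26-Foxm1 against 8.72 in wild-type lung, Gpnmb, a transmembrane glycoprotein, was 125 against 5.86, and Trem2, a lipid-sensing receptor, 22.6 against 3.02. Of 16 measured interstitial macrophage and monocyte genes 5 were past 1.5-fold on the higher side and 0 on the lower. The other 11 were between, and the median was 0.14. By sign, 9 were above 0 and 7 below. The complement genes C1qa, C1qb and C1qc were 2.73-fold, 2.82-fold and 3.13-fold higher and Ms4a7 4.92-fold, whereas the monocyte chemokine receptor gene Ccr2 was 5.39 against 7.15 (-0.41). Itgam at -0.43, Lyve1 at -0.36 and F13a1 at -0.35 were among the others below 0. The summed intensity of this list was 1164 in Rosa26-Foxm1 and 917 in wild-type lung. The part of these cells in the values of the identity genes was not tested. Dendritic cell markers, some of which overlap with macrophages, had a median of -0.09 over 10 genes, with 0 higher and 2 lower at the 1.5-fold size (Cd209a, and Zbtb46 at 1.92 in Rosa26-Foxm1 against 3.70 in wild-type lung), and a summed intensity of 54.8 against 59.9.

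**Figure D4:**
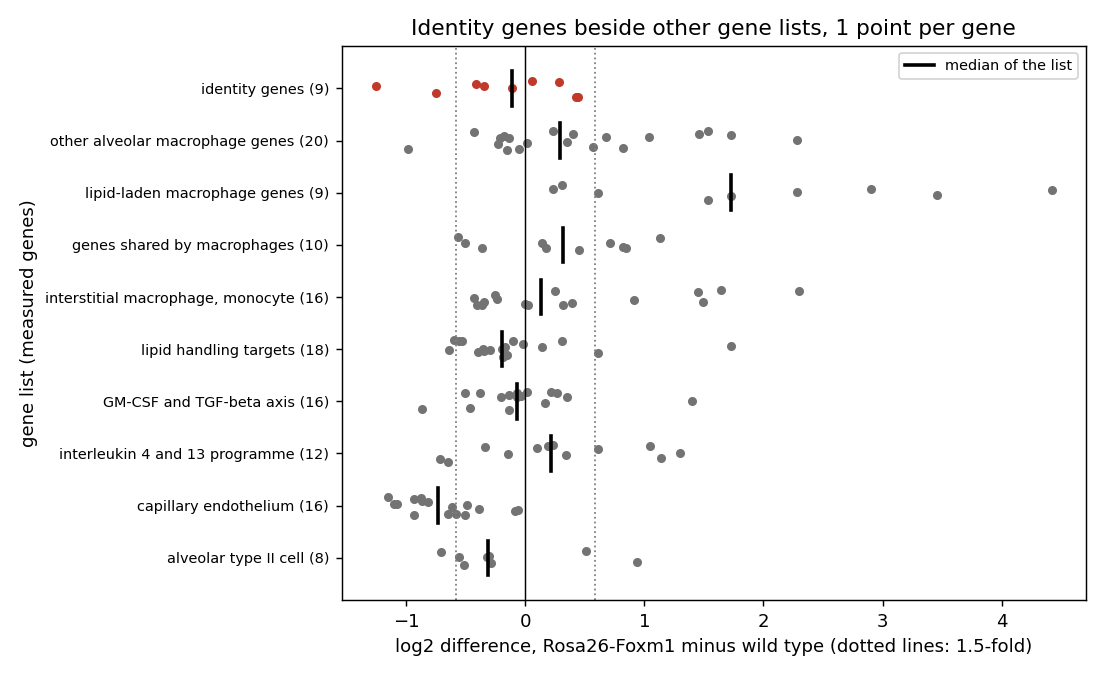
Log2 difference (Rosa26-Foxm1 minus wild type) of every measured gene on 10 lists, 1 point per gene, with the median of each list as a black bar and 1.5-fold as dotted lines. The identity genes (red) spread from -1.26 to 0.45 around a median of -0.11, while the lipid-laden list has a median of 1.73 and the capillary list one of -0.73.

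The members varied by 1.70 log2 units from Siglecf to Pparg. Their differences did not follow brightness: Siglecf, at -1.26, and Pparg, at 0.45, lay in the same brightness class, and the brightest class held Chil3 at 0.43 and Cd36 at -0.41. Of the 9 members 3 (Fabp4, Mrc1 and Car4) differed by less than the probe SD. Most measured genes did so: Lamp3, at -0.30, stood at percentile 24.8 of them and Apoe, at 0.30, at percentile 80.6. Between the 5th and 95th percentiles of their own brightness class lay 8 members, a range that by its definition holds most genes. Over all genes the 5th and 95th percentiles were -0.71 and 0.69, with Siglecf and Marco below the lower one and no member above the upper one.

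**Figure D5:**
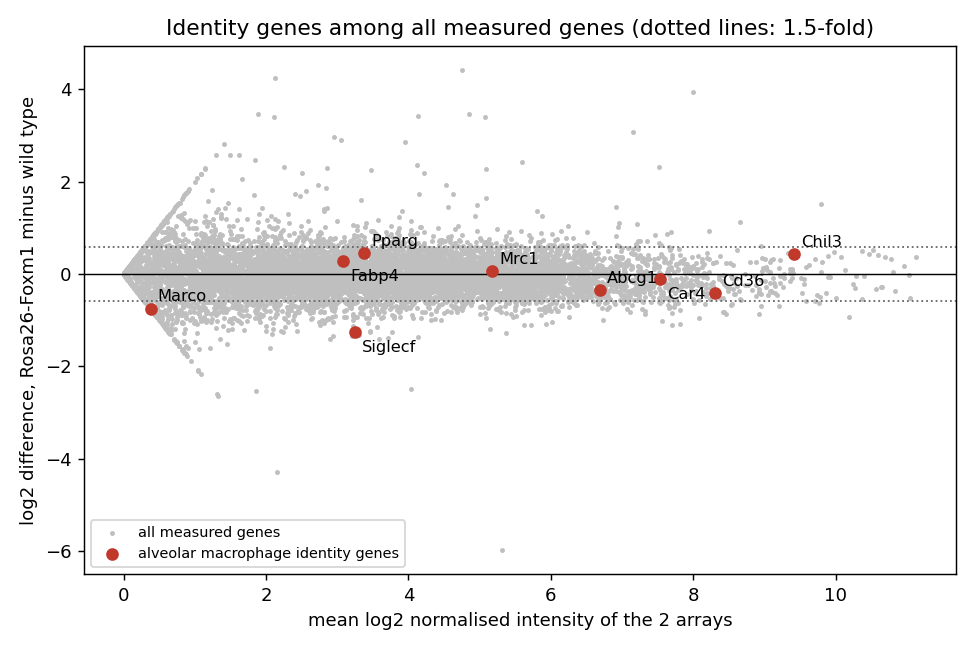
Log2 difference (Rosa26-Foxm1 minus wild type) against the mean log2 normalised intensity of the 2 arrays for all 9518 measured genes (grey) and the 9 identity genes (red), with dotted lines at 1.5-fold. Siglecf lies at the lower edge of the cloud at middle brightness, Marco lies on the edge that the floor draws at the dim end, and the other 7 lie within the dotted lines.

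With 2 arrays no correlation between genes can be had, so likeness was taken as the distance between pairs of log2 values, among 178 measured genes of all lists. The genes nearest to Siglecf were Cdh5 (distance 0.29), Aplnr (0.32; 7.65 in Rosa26-Foxm1 and 13.9 in wild-type lung) and Stat5a (0.61; 6.91 against 9.79). Those nearest to Marco were Flt4 (0.36), Plin4 (0.36) and Siglecg (0.42), each with values near or below the floor. Values below the floor were set to it first, so Marco and Plin4, both below it in Rosa26-Foxm1 lung, count as equal on that array. The distance says that a pair of genes had similar floored values on these 2 arrays and nothing more.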

How the data were processed

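The authors deposited a linear intensity for each probe on each array; how they quantified, corrected and scaled the images: not given in the sources used here. Per the labels, cRNA carried digoxigenin and was made with a chemiluminescent kit from Applied Biosystems. Of 33012 probes 14411 were listed for 1 gene, 247 for several (not named) and 18354 for none, and 13832 of 13840 genes matched a gene ID of RefSeq GRCm38.p6.

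The members, gene lists and settings were chosen with earlier results of these data known. Intensities were quantile normalised between the 2 arrays, set to a floor at the 50th percentile (1.00) and taken to log2, and a gene was read from its probe with the highest mean. Named were all members and family genes, up to 4 genes at each end of every other list past 1.5-fold, and fixed markers where measured. No p-value is given, since each group is 1 pooled sample. Alternatives were median scaling, no further scaling, loess with a span of 0.3, a floor at the 25th or the 75th percentile, no floor, the median over probes, and log2(value + 1). Steps were tested on simulated data and run in Python 3.11.15 with numpy 2.4.6, pandas 2.3.3 and statsmodels 0.14.6.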

Additional observations from a re-analysis of the deposited data

Results flagged for a closer look

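A probe listed for both Chil3 and Chil4 (350348) was left out of the gene values because it cannot be assigned to either. Its normalised intensity was 601 in Rosa26-Foxm1 and 447 in wild-type lung, a log2 difference of 0.43 (1.34-fold higher). It drew attention because it carries signal outside the gene values that was higher in Rosa26-Foxm1 than in wild-type lung. The probes listed for Chil3 alone were at 0.43 and 0.22. Which of the genes the 3 probes read was not tested.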

How the results depend on the processing

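Of 71 values for the 9 identity genes under the alternatives, 69 moved by less than the probe SD. The exceptions were both for Marco, at -1.20 with a floor at the 25th percentile and at -1.20 with none, where the reported value is a bound set by the floor. Marco could not be measured with the floor at the 75th percentile, where the number of members at least 1.5-fold lower was 1. The number at least 1.5-fold higher was 1 (Chil3) with median scaling and 1 with the deposited values. Car4 was at 0.03 with both, and the median of the 9 was 0.03. Of all measured genes, 1478 were at least 1.5-fold apart, 2906 with the floor at the 25th percentile and 525 at the 75th. Of 120 list medians 115 moved by less than the probe SD. The exceptions were the lipid-laden list, at 2.25 with the floor at the 25th percentile and 2.25 with none, the eosinophil list, at 0.59 with the floor at the 75th percentile and -1.43 with none against -0.54 as reported, and the other alveolar macrophage genes, at -0.021 without those also on the lipid-laden list (chosen after seeing the data). The eosinophil median rests on 2 genes of opposite sign. The adipocyte list had no measured gene with the floor at the 75th percentile. Of the other genes on the lists, 1244 of 1296 values moved by less than the probe SD and none past 1.5-fold changed sign. Beyond the floor and the list chosen, the cause of these shifts was not tested. No paired analysis was possible because each genotype has 1 array.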
